A study of Mus musculus with 2 samples.

Results

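Fos-positive microglia are microglia in which transcripts of Fos, an activity-induced transcription factor, were counted at least 2 times. They were chosen by a rule on the deposited counts. A barcode was kept with at least 200 genes and at most 10% of its UMIs from mitochondrial genes. UMIs are random sequence tags added before amplification, which let copies of the same transcript be counted once. P2ry12, Gpr34, Tmem119, Siglech, Fcrls and Olfml3, 6 genes typical of microglia, had to hold at least 0.5% of the cell's UMIs. S100a8 and S100a9, abundant in neutrophils, had to hold under 1%, and the nuclear RNA Malat1 at least 0.5%. Of 14872 barcodes, 14849 passed the first limits, 7524 were microglia of this gate, and 448 of these held at least 2 Fos UMIs. The comparison group was the 6576 microglia of the same gate with no Fos UMI, called Fos-zero. The remaining 500 cells held 1 Fos UMI and belonged to neither group.

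The cells came from whole brains of 23-week-old male littermates. One group carried the intact Disc1 gene on both chromosomes (Disc1 WT/WT), the other the locus impairment allele on both (Disc1 LI/LI), which the study treats as equal to a knockout. The allele is present in every cell of the body. Brains of 6 mice per genotype were pooled into 1 library, so no genotype difference has a replicate check and no test between libraries was made. Both groups were dissociated in the presence of actinomycin D, an inhibitor of transcription (the Act-Seq method), and sorted for low CD45 and for CD11b, surface proteins of microglia and other myeloid cells. Of the Fos-positive microglia, 297 came from the Disc1 WT/WT library and 151 from the Disc1 LI/LI library.

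Fos is the best known of the immediate early genes. Their transcription starts within minutes of a signal, without new protein synthesis, through kinases that act on factors already bound at their promoters, such as SRF and CREB. FOS protein pairs with a JUN protein to form AP-1, which binds DNA and sets the transcription of later genes. Much of the same program also encodes its own brakes, among them phosphatases and proteins that destabilize messenger RNA, so the transcripts are short-lived. In microglia the program is known to follow both signals in the living brain and the handling of tissue after death, and actinomycin D is added to limit the latter.

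The libraries differed in more than genotype. The files hold 33601957 UMIs in 7038 barcodes for Disc1 WT/WT, and 81.6% of the cells passing the first limits fell in the microglia gate. For Disc1 LI/LI they hold 47731571 UMIs in 7834 barcodes, but 22.8% of the cells fell in the gate, and 3607 carried neutrophil transcripts instead, against 107 in Disc1 WT/WT. Transcripts of neutrophils were also found inside the gate. A gate cell held on average 0.136 UMIs of S100a8 and S100a9 in Disc1 WT/WT and 2.99 in the Disc1 LI/LI library. Neutrophil-gated cells were themselves rich in Fos, with at least 2 Fos UMIs in 91.6% of those in Disc1 WT/WT and 93.1% in the Disc1 LI/LI library. In Disc1 WT/WT, neutrophil-gated cells held 1132 Fos UMIs beside 150301 of S100a8 and S100a9, and gate microglia 2344 beside 779. In Disc1 LI/LI, neutrophil-gated cells held 39668 beside 6647041, and gate microglia 1132 beside 5346. The part of neutrophil RNA in the Fos counts of gate microglia was not tested. The 2 libraries shared 12 barcodes, none of them a Fos-positive microglia in either library.

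The labels held up against their own genes. Disc1 gave 642 UMIs over all cells in the Disc1 WT/WT library and 22 in the Disc1 LI/LI library, and 38 and 3 UMIs among Fos-positive microglia. Xist, transcribed from the inactive X chromosome of females, gave 2 and 5 UMIs, and the Y-linked Ddx3y 3125 and 2422, as in male tissue.

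The Fos-positive cells were checked against microglial genes that the selection did not use. Of 20 homeostatic genes, 17 were below Fos-zero cells in both libraries and none was past 1.5-fold. Cx3cr1, the fractalkine receptor, which other myeloid cells can also carry, stood at 3347 normalised counts (CPM) in Fos-positive and 3420 in Fos-zero cells of Disc1 WT/WT, and at 2972 and 2923 in Disc1 LI/LI. CPM are the UMIs of a gene summed over the cells of a group and scaled to 1000000 UMIs of the same cells. Since each transcript is counted once at its 3′ end, these levels do not grow with gene length. Among the selection genes, P2ry12 was 3302 CPM in Fos-positive and 4120 in Fos-zero cells of Disc1 WT/WT, and 2590 and 3277 in Disc1 LI/LI, while Tmem119 was close to even at 1118 and 1137, and at 1333 and 1318. Defining genes of other brain cells were close to absent. Neuronal markers summed to 1.05 CPM in Fos-positive cells of Disc1 WT/WT and 2.53 in the Disc1 LI/LI library, with 5 and 6 of the 7 genes at 0, and endothelial markers to 27.3 and 37.9 CPM, with Cdh5 and Cldn5 at 0 in both. Astrocyte markers summed to 284 and 248 CPM, of which Slc1a3, also measured at 289 and 258 CPM in Fos-zero microglia, gave 280.0 and 241, and Aqp4 was at 0 in both. Oligodendrocyte markers summed to 89.1 against 87.4 CPM in Fos-zero cells of Disc1 WT/WT and 89.7 against 95.5 in Disc1 LI/LI, led by Cnp with Mog and Cldn11 at 0 in both, and erythroid markers to 2.10 against 3.19 and 16.4 against 19.1.

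Other myeloid cells were less clearly absent. The 11 monocyte markers summed to 119 CPM in Fos-positive against 25.5 in Fos-zero cells of Disc1 WT/WT, with Ccr2 the most abundant and Fn1 and Vcan at 0, and to 652 against 179 CPM in Disc1 LI/LI, with Plac8 the most abundant and Spn and Ace at 0. The 9 markers of border macrophages, the macrophages of the brain's coverings and vessels, summed to 279 against 103 CPM in Disc1 WT/WT, led by Mrc1 with none at 0, and to 138 against 27.8 CPM in Disc1 LI/LI, led by F13a1 with Cd209f and Cbr2 at 0. T and NK cell markers summed to 20.4 against 20.6 CPM in Disc1 WT/WT, where Cd3d led and Cd8a, Klrb1c and Ncr1 were at 0, and to 160.4 against 42.0 in Disc1 LI/LI, where Trbc2 led and Cd4 and Gzma were at 0. B and plasma cell markers summed to 212 against 246 CPM, led by Ighm with Ighg1 at 0, and to 484 against 475, led by Igkc with none at 0. Neutrophil markers, S100a8 and S100a9 included, summed to 215 against 186 CPM in Disc1 WT/WT and to 1536 against 1485 in Disc1 LI/LI, led by Csf3r in the former, with Ltf, Elane and Mpo at 0, and by S100a9 in the latter. Cells with any UMI of a border macrophage marker, at least 2 UMIs of monocyte markers (Nr4a1 left out, since it is an immediate early gene), or at least 5 UMIs of the MHC class II genes Cd74, H2-Aa, H2-Ab1 and H2-Eb1 were therefore marked. They were 61 of 297 Fos-positive and 473 of 5159 Fos-zero microglia of Disc1 WT/WT (20.5% and 9.17%), and 44 of 151 and 273 of 1417 in Disc1 LI/LI (29.1% and 19.3%). This limit was set after the data were seen, and values without these cells are given beside the results on gene lists and genes whose calls it changes.

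Fos-positive cells were a small share of the microglia. Fos was counted at least 2 times in 5.18% of 5739 gate microglia of Disc1 WT/WT (95% Clopper-Pearson interval 4.62 to 5.78%) and in 8.46% of 1785 of Disc1 LI/LI (7.21 to 9.85%). All intervals cover counting error only, not the spread between mice. Since a deeper cell has more chances to show a UMI, each cell was also thinned at random to 2000 UMIs, leaving out 168 and 47 shallower cells. At least 2 Fos UMIs then remained in 2.67% (2.27 to 3.13%) and 4.95% (3.98 to 6.08%), so the higher share in Disc1 LI/LI was present at equal depth. Barcodes of the same limits but under 0.5% Malat1, with lower medians of 2699 and 2413 UMIs, held at least 2 Fos UMIs in 0.227% of 441 and 0.606% of 165. That share is a measure of Fos counts in barcodes with little nuclear RNA, not of a cell type known to lack Fos.

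**Figure D1:**
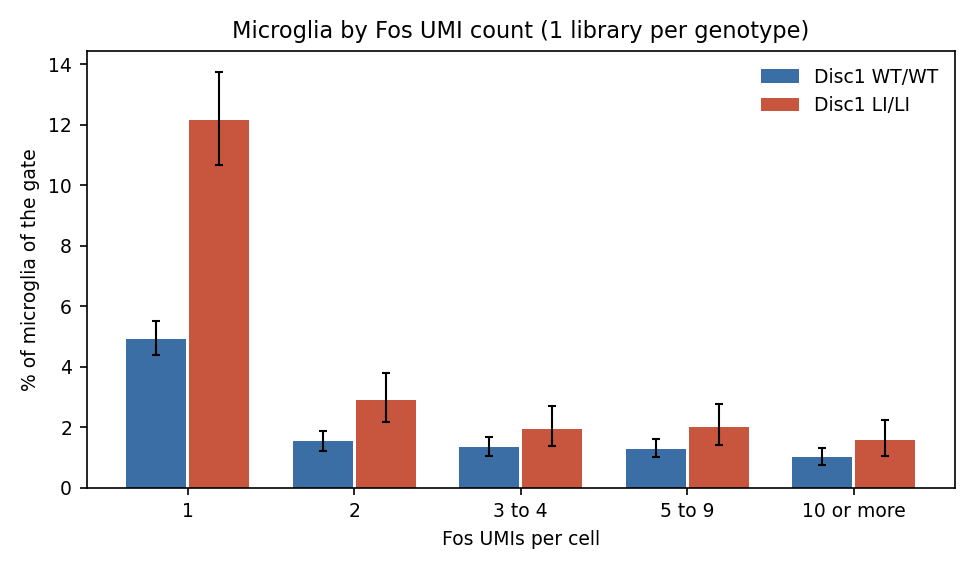
Bars give the percent of gate microglia (y axis) with 1, 2, 3 to 4, 5 to 9 and 10 or more Fos UMIs (x axis) in the Disc1 WT/WT (blue) and Disc1 LI/LI (red) libraries, with 95% Clopper-Pearson intervals for counting error as lines. The bars of Disc1 LI/LI are taller in every class, and by most for 1 UMI, at 12.2% against 4.93%.

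Among Fos-positive cells, Fos was unevenly spread. The median was 4 UMIs per cell in both libraries, and the highest cell held 110 UMIs in Disc1 WT/WT and 62 in the Disc1 LI/LI library. In Disc1 WT/WT, 88 cells held 2 UMIs, 77 held 3 to 4, 74 held 5 to 9 and 58 held 10 or more, and in Disc1 LI/LI these classes held 52, 35, 36 and 28 cells. The 5 cells with most Fos gave 14.9% of the Fos UMIs of Disc1 WT/WT and 17.05% of those of Disc1 LI/LI. Summed, Fos stood at 1081 CPM in Fos-positive cells of Disc1 WT/WT and 1156 CPM in those of Disc1 LI/LI, values that the selection itself set. The gene lies on mm10 chr12:85473890-85477273, plus strand.

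Fos-positive cells were deeper than Fos-zero cells but close to them in the other measures of quality. The median was 5143 against 4305 UMIs per cell in Disc1 WT/WT and 4436 against 3793 in Disc1 LI/LI. Thinned to 2000 UMIs, the median number of genes was 1132 against 1148 and 1055 against 1076. Mitochondrial UMIs had medians of 0.862% against 0.825% in Disc1 WT/WT and 0.758% against 0.654% in Disc1 LI/LI, and Malat1 of 2.95% against 3.08% and 3.11% against 3.13%. The median share of S100a8 and S100a9 was 0% in both classes of Disc1 WT/WT, and 0.0648% against 0.0643% in Disc1 LI/LI.

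The immediate early genes were high together with Fos in both libraries. Log2 ratios of CPM, Fos-positive over Fos-zero, were taken within each library for 2922 genes with a mean of the 2 classes of at least 50 CPM in each library, the selection genes left out. A gene is called higher or lower where it was at least 1.5-fold apart in the same direction in both libraries, a limit of size and not a test. In all, 48 genes (1.64% of those measured) were called higher and none (0%) lower. Within the single libraries, 60 (2.05%) were higher and 1 (0.0342%) lower in Disc1 WT/WT, and 63 (2.16%) stood higher and 36 (1.23%) lower in the library of Disc1 LI/LI. The immediate early list has 49 genes with Fos. Of the other 48, 21 reached the minimum, and 15 of these 21 were called higher and none lower. Their median log2 ratio was 1.57 in either library, beside -0.05 in both for all genes measured. The remaining 27 were under the minimum. Over all measured genes, 20 of the 48 called were under 50 CPM in Fos-zero cells of a library. Of the 21 early genes, 8 reached 50 CPM only through the Fos-positive cells in a library, and such a gene had to be higher there. With the minimum set on all gate microglia together, the medians were 1.03 and 1.14.

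Egr1, a zinc finger transcription factor, had the highest ratio of the 21 measured early genes in both libraries, and was among the 8 that reached the minimum only through the Fos-positive cells. It stood at 201 CPM in Fos-positive and 12.5 in Fos-zero cells of Disc1 WT/WT, and at 148 and 12.6 CPM in Disc1 LI/LI. Fos-positive cells were thus 16.0-fold (95% interval 13.7 to 18.7) and 11.7-fold (8.66 to 15.9) higher. Klf2, a transcription factor of quiescent immune and endothelial cells, stood at 368 against 47.0 CPM in Disc1 WT/WT and 361 against 73.0 in Disc1 LI/LI, or 7.83-fold (7.12 to 8.61) and 4.95-fold (4.25 to 5.77). Ier2, a nuclear protein of early growth responses, stood at 212 against 32.5 and 205 against 50.4 CPM. In Disc1 WT/WT, Klf2 and Ier2 too reached the minimum only through the Fos-positive cells and had to be higher. In Disc1 LI/LI their Fos-zero cells were above 50 CPM. The levels of Klf2 and Ier2 in Fos-positive cells were near equal between libraries. Their smaller folds in Disc1 LI/LI came with higher levels in its Fos-zero cells. Over all gate cells, Egr1 was at a lower level in the Fos-positive cells of Disc1 LI/LI. Once cells holding other myeloid transcripts were left out, its level there was 207 CPM, against 203 CPM for Disc1 WT/WT. The Egr1 folds were then 15.0 (Disc1 LI/LI) and 16.5 (Disc1 WT/WT).

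The partners of FOS were the most abundant members. Jun, the chief partner in AP-1, stood at 1843 against 643 CPM in Disc1 WT/WT and 1937 against 652 in Disc1 LI/LI, or 2.87-fold (2.76 to 2.97) and 2.97-fold (2.80 to 3.15). Junb stood at 933 against 315 and 1419.9 against 439 CPM, and Jund at 1038 against 498 and 1302 against 557. Atf3, a stress-induced factor that pairs with JUN proteins, had the largest ratio of the AP-1 genes above the minimum, at 179 against 23.5 CPM in Disc1 WT/WT and 202 against 35.4 in Disc1 LI/LI, or 7.60-fold (6.63 to 8.71) and 5.71-fold (4.62 to 7.06). Of the 8 measured AP-1 genes other than Fos, these 4 were called higher and none lower, beside 1.64% of all genes called higher. Atf3 reached the minimum only through the Fos-positive cells and had to be higher. Maf, a factor that mature macrophages carry, had the lowest ratios of the family members above the minimum, at log2 -0.21 and -0.34. Fosb, the closest relative of Fos, stayed under the minimum at 51.4 against 4.57 CPM and 45.5 against 3.59 CPM. Fosb is outside the rule by which genes are named, as are Gadd45b, Nr4a1 and Nfkbiz, and they were chosen after their values were seen. Of all 27 early genes under the minimum, 20 were above 0 in both libraries, 11 with intervals above 0 in both, and 2 were below 0 in both. Gadd45b was at 41.9 against 3.59 and 79.6 against 5.47 CPM, the nuclear receptor Nr4a1 at 17.8 against 1.23 and 27.8 against 5.47, and Nfkbiz, an inducible cofactor of NF-kB, at 65.5 against 7.92 and 58.1 against 6.83. Npas4, the early gene of depolarized neurons, had no UMI in either class of either library, and Arc 1 UMI in all Fos-positive cells.

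Not all early genes took part. Dusp6, the phosphatase that acts on ERK, stood at 365 against 378 CPM in Disc1 WT/WT and 278 against 290 in Disc1 LI/LI. Rhob, a small GTPase, stood at 1502 against 1500.3 and 1324 against 1213 CPM. Mcl1, Sgk1, Zfp36l1 and Id2 were also not called, with log2 ratios of 0.18 to 0.60 in Disc1 WT/WT and 0.41 to 0.57 in Disc1 LI/LI. Id2, an inhibitor of helix-loop-helix factors, was just past 1.5-fold in both libraries without cells holding other myeloid transcripts (log2 0.59 and 0.67), which made 16 early genes.

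**Figure D2:**
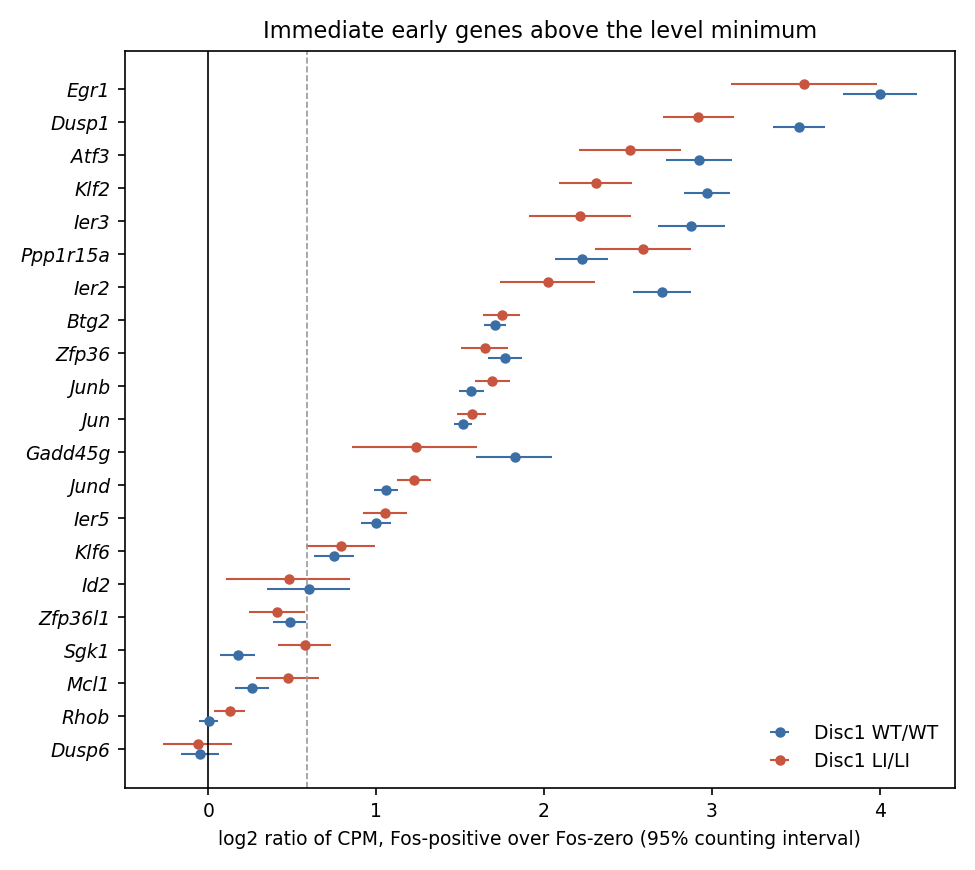
Points give the log2 ratio of CPM, Fos-positive over Fos-zero (x axis), of the 21 immediate early genes above the minimum (y axis), in Disc1 WT/WT (blue) and Disc1 LI/LI (red), with 95% counting intervals as lines; the dashed line marks 1.5-fold. The 15 called genes lie right of it in both libraries, from Klf6 to Egr1, and Dusp6 and Rhob lie near 0.

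The promoters of the called early genes were read from RefSeq (GRCm38.p6, the assembly of mm10) to show what these co-varying genes share before transcription. Windows ran from 250 bases before to 50 after the start, and 14 of the 16 genes (the 15 and Fos) were matched. The full cAMP response element TGACGTCA, the site of CREB and ATF factors, was in 3 of the 14 (Dusp1, Btg2 and Ppp1r15a) and in 1.79% of all 32851 promoters, both strands searched. Its core TGACG, which every full element contains, was in 7 of the 14, Fos among them, and in 20.8% of all. The CArG box of SRF was in 1 of the 14, Zfp36, and in 1.63% of all. The AP-1 site TGANTCA was in none of the 14 and in 7.81% of all, the EGR site GCGNGGGCG in 3 (Btg2, Zfp36 and Klf2) and in 5.55%, the NF-kB box in 2 (Fos and Ier3) and in 4.51%, and TATAAA in 4 (Fos, Ppp1r15a, Junb and Gadd45g) and in 13.6%. A match is a description of letters and not a bound site, and sites further from the start were not searched. The 200 bases before the start are shown for Fos, which defines the cells, for the 3 genes with a full response element, and for Zfp36, with matches to TGACG, TGACGTCA, the CArG box and TATAAA in capitals.
Fos, chr12:85473690-85473889, plus strand: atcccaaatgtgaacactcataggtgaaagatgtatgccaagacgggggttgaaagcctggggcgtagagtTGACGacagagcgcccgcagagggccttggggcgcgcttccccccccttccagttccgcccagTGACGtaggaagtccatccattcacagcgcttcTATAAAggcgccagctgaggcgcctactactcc
Dusp1, chr17:26508473-26508672, minus strand: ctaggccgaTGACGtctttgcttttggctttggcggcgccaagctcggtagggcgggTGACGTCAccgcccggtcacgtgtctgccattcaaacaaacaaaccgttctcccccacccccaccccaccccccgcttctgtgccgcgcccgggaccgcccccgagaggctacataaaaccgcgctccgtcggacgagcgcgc
Btg2, chr1:134079156-134079355, minus strand: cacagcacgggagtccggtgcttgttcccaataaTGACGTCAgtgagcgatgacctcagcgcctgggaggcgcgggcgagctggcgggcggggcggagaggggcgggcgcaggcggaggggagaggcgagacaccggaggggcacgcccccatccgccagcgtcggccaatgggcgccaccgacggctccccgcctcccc
Ppp1r15a, chr7:45526269-45526468, minus strand: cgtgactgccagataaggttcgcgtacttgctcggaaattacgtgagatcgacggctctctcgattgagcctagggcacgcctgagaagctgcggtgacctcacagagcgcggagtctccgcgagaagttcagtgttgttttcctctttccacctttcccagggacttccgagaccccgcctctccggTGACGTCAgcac
Zfp36, chr7:28379229-28379428, minus strand: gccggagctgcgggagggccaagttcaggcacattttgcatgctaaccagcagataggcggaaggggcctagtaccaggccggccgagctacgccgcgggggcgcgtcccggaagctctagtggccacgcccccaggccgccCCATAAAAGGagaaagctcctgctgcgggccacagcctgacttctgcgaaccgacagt
In Fos the core lies at positions -129 and -66 from the start and TATAAA at -33. In Dusp1 the full element lies at -143, in Btg2 at -166 and in Ppp1r15a at -12, and the CArG box of Zfp36 starts at -58.

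Several genes that end the response were called higher. Of 24 feedback inhibitors, 12 were measured and 7 called higher, beside 1.64% of all genes, with median log2 ratios of 1.49 in Disc1 WT/WT and 1.56 in the Disc1 LI/LI library. Of the 12, 4 reached the minimum only through the Fos-positive cells in a library and had to be higher there. Dusp1 did so in Disc1 WT/WT, and Ppp1r15a, Ier3 and Socs3 in both libraries. Of the 7, 5 (Dusp1, Zfp36, Btg2, Ppp1r15a and Ier3) are also on the immediate early list. Dusp1, a phosphatase that switches off MAP kinases, stood at 337 against 29.4 CPM in Disc1 WT/WT and 485 against 64.1 in Disc1 LI/LI, or 11.5-fold (10.3 to 12.8) and 7.57-fold (6.55 to 8.75). Zfp36, the tristetraprolin gene, whose protein speeds the decay of cytokine messages, stood at 524 against 154 and 747 against 238 CPM. Btg2, an antiproliferative cofactor of message decay, was the most abundant of them in Fos-positive cells at 1246 against 382 and 1252 against 372 CPM, or 3.27-fold (3.12 to 3.42) and 3.36-fold (3.11 to 3.62). Ppp1r15a, which restores translation after stress, stood at 231 against 49.3 and 234 against 38.8 CPM, and Ier3, a survival factor, at 172 against 23.4 and 188 against 40.5. Nfkbia, the inhibitor that holds NF-kB in the cytoplasm, stood at 646 against 257 and 841 against 303 CPM, and Socs3, which blocks cytokine receptor signalling, at 80.7 against 25.6 and 152 against 39.5. Spred1, an inhibitor of the Ras pathway, had the lowest log2 ratios, -0.26 and -0.33.

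Genes of the upstream kinases and factors were within 1.5-fold. Of 24 genes of the MAP kinase, SRF and CREB pathway, 9 were measured, and none was past 1.5-fold in either direction in either library. The same held for most genes, since 1.64% of all were called higher and 0% lower. The median log2 ratios of the 9 were -0.17 and -0.19, beside -0.05 for all genes. Without cells holding other myeloid transcripts, the medians of the 9 were -0.09 and -0.03. Map2k1, which encodes the kinase MEK1, had the lowest of the 9 at -0.45 and -0.44, and Map2k2, which encodes MEK2, the highest mean of the 2 libraries, at 0.00 and 0.12. In Disc1 LI/LI, Map2k1 stood at 49.3 against 66.6 CPM, reached the minimum only through the Fos-zero cells and had to be lower there. Rps6ka1, the most abundant, stood at 192 against 200.1 CPM in Disc1 WT/WT and 174 against 159 in Disc1 LI/LI.

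Levels of Egr1 and Btg2 were graded with the Fos count among the cells, not only split at 2 UMIs. In Disc1 WT/WT, Egr1 stood at 12.5 CPM in cells with no Fos UMI, 55.4 with 1, 89.9 with 2, 178 with 3 to 4 and 281 with 5 or more. In Disc1 LI/LI the same classes held 12.6, 39.2, 74.0, 123 and 212 CPM, so the order was the same. Btg2 followed with 382, 624, 962, 1126 and 1485 CPM in Disc1 WT/WT and 372, 411, 754, 1312 and 1593 in Disc1 LI/LI. Over all gate cells, Atf3, Ier3, Zfp36 and Nfkbia also rose at each step in both libraries. Several other genes were less regular. In Disc1 WT/WT, Jun, Jund, Klf2, Ier2 and Ppp1r15a were higher in cells with 2 Fos UMIs than in those with 3 to 4, as for Jun at 1617 and 1426 CPM. In Disc1 LI/LI, Jun and Junb were slightly higher with 3 to 4 than with 5 or more. The cells next to the limit on either side thus differed by less than the ends. Cells with 1 Fos UMI held 87.8 CPM of Dusp1 in Disc1 WT/WT and 76.6 in the Disc1 LI/LI library, and cells with 2 held 183 and 255. In Disc1 LI/LI, cells with 1 Fos UMI were nearer to Fos-zero cells than in Disc1 WT/WT for Jun (780 against 652 CPM, and 1053 against 643) and for Btg2. P2ry12, which the selection used, went the other way, from 4120 CPM in Fos-zero cells to 2980 with 5 or more Fos UMIs in Disc1 WT/WT, and from 3277 to 2401 in Disc1 LI/LI.

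**Figure D3:**
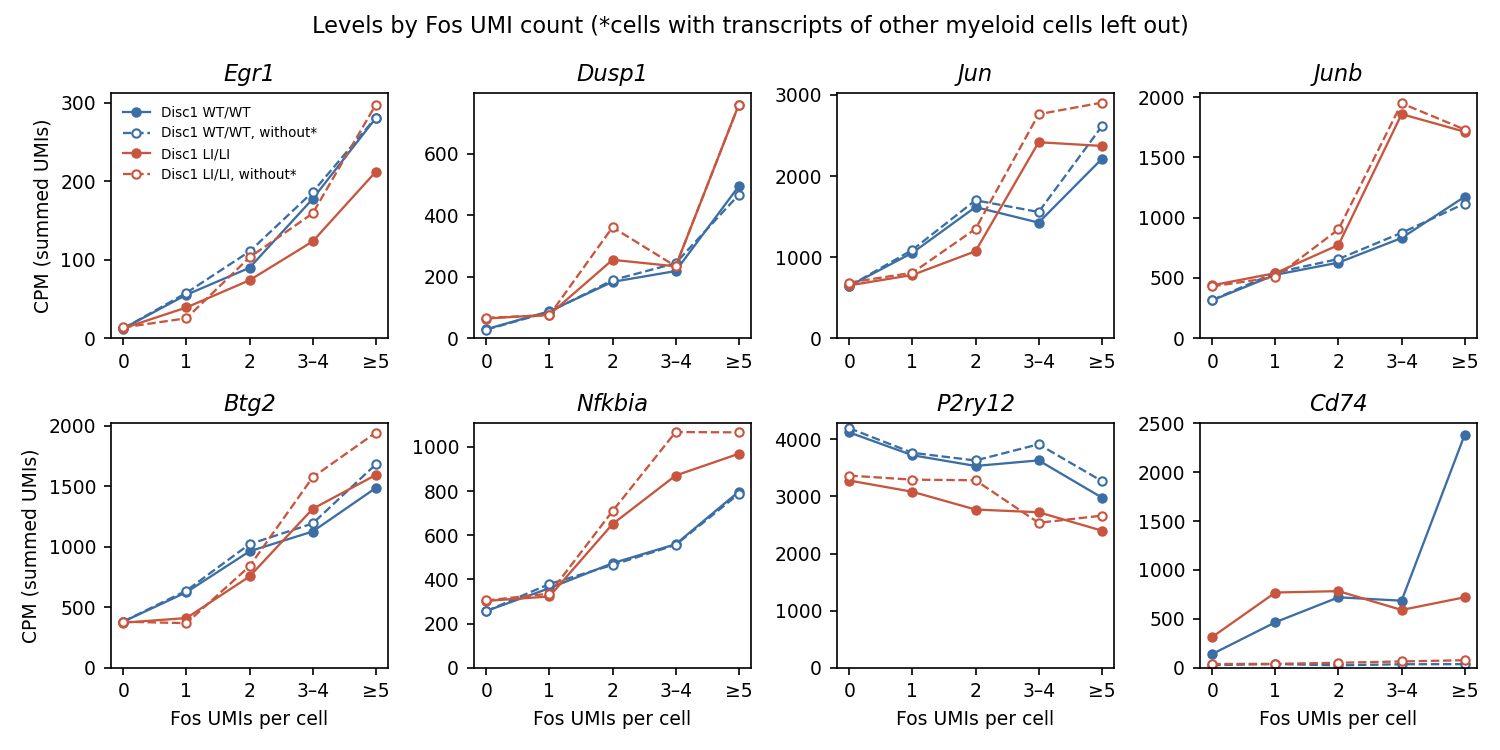
Lines give CPM (y axes, each from 0) of 8 genes in microglia with 0, 1, 2, 3 to 4 and 5 or more Fos UMIs (x axes), in Disc1 WT/WT (blue) and Disc1 LI/LI (red), over all gate cells (filled) and without cells that hold transcripts of other myeloid cells (open, dashed). Egr1 and Btg2 climb over the classes in all 4 lines apart from the step from 0 to 1 UMI of Btg2 in Disc1 LI/LI without those cells, P2ry12, a selection gene, is lower at 5 or more than at 0, and Cd74 is high in the filled lines only.

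More of the early genes were detected per cell in Fos-positive than in Fos-zero cells. Whether they occurred together beyond the higher detection of each single gene was not tested. With each cell thinned to 2000 UMIs, a median of 11 of the 48 other immediate early genes was detected in a Fos-positive cell of either library, 8 and 7 in a cell with 1 Fos UMI, and 6 in a Fos-zero cell. At least 5 of them were detected in 294 of 296 Fos-positive cells of Disc1 WT/WT and 148 of 151 of Disc1 LI/LI, and in 82.0% and 76.7% of Fos-zero cells. Single genes reached fewer cells. Thinned, Egr1 was detected in 24.0% of Fos-positive against 1.94% of Fos-zero cells in Disc1 WT/WT and in 21.2% against 2.04% in Disc1 LI/LI. Dusp1 was detected in 37.2% against 4.36% and 45.0% against 10.3%, and Jun in 88.2% against 53.1% and 84.8% against 49.6%. Without cells holding other myeloid transcripts, the median number of early genes was 11 in Disc1 WT/WT and 12 in the Disc1 LI/LI library, against 6 in both for Fos-zero cells.

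Inflammatory messages were unevenly spread among the Fos-positive cells. Of 30 NF-kB and cytokine genes, 15 were measured, 4 were called higher (Il1b, Ccl4, Ccl3 and Nfkbia), beside 1.64% of all genes, and none lower, and the median log2 ratios were 0.50 and 0.43. Il1b, the pyrogenic cytokine interleukin-1 beta, stood at 120 CPM in Fos-positive and 5.51 in Fos-zero cells of Disc1 WT/WT and at 235 and 27.3 in Disc1 LI/LI, or 21.7-fold (17.5 to 27.0) and 8.60-fold (6.92 to 10.7). Il1b reached the minimum only through the Fos-positive cells and had to be higher. Its UMIs came from 25 of 297 and 19 of 151 cells, and the 5 highest cells gave 64.0% and 90.3% of them. The counting intervals take no account of such concentration. Thinned to 2000 UMIs, Il1b was detected in 5.41% and 7.95% of Fos-positive cells, against 1.04% and 4.09% of Fos-zero cells. The chemokine Ccl4 stood at 494 against 81.6 and 759 against 223 CPM, with 40.6% and 43.4% of its UMIs in 5 cells, and Ccl3 at 307 against 58.9 and 331 against 109. Ccl4 was detected in 76 of 297 and 50 of 151 Fos-positive cells and Ccl3 in 77 and 42. Thinned to 2000 UMIs, Ccl4 was detected in 16.9% and 23.8% of them, against 5.04% and 7.52% of Fos-zero cells. For comparison, 5 cells gave 6.54% of the UMIs of Jun in Disc1 WT/WT and 11.3% in the Disc1 LI/LI library. Without cells holding other myeloid transcripts, Il1b was 9.75-fold and 9.74-fold higher, Ccl4 4.10-fold and 4.34-fold, and Ccl3 3.24-fold and 3.47-fold. Il1a, the gene of interleukin-1 alpha, then joined the called genes, from log2 0.78 and 0.43 to 0.86 and 0.86. Il1b stayed uneven in Disc1 LI/LI without those cells, at 645 CPM in cells with 2 Fos UMIs, 74.9 with 3 to 4 and 77.7 with 5 or more. Its near-equal folds in the 2 libraries thus do not show a like spread over cells. Nfkb1, a subunit gene of NF-kB itself, had the lowest mean of the 2 libraries among the measured genes, at log2 -0.18 and -0.09.

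The MHC class II genes, which present antigen to T cells, were called higher but rested on a few cells. Cd74, the invariant chain, stood at 1482 against 141 CPM in Disc1 WT/WT and 718 against 315 in Disc1 LI/LI. H2-Aa stood at 494 against 52.8 and 232 against 82.0 CPM, H2-Ab1 at 431 against 44.4 and 173 against 70.0, and H2-Eb1 at 492 against 51.7 and 165 against 80.5. The 10 cells with most of these UMIs held 70.2% of them in Disc1 WT/WT and 93.7% in the Disc1 LI/LI library. At least 5 such UMIs were found in 29 of 297 Fos-positive (9.76%) and 93 of 5159 Fos-zero cells (1.80%) of Disc1 WT/WT, and in 9 of 151 (5.96%) and 41 of 1417 (2.89%) of Disc1 LI/LI. The 29 and 9 cells also held Mrc1, a border macrophage gene, at 325 and 92.2 CPM, and Ccr2, a monocyte gene, at 239.7 and 143 CPM, beside P2ry12, which the selection used, at 2486 and 1669 CPM. Cd74 was also high next to the lower limit on microglial genes. The 16 and 11 Fos-positive cells just above 0.5% held it at 2727 and 1722 CPM, and the 8 and 18 cells just below, which met all other limits, at 7581 and 2630.4 CPM. Whether the cells with MHC class II UMIs were microglia, another cell or 2 cells in a droplet was not tested.

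Without the cells holding other myeloid transcripts, 37 of the 48 called genes were still past 1.5-fold in both libraries, and 43 of 48 were above 0. All 15 called immediate early genes were among the 37. Leaving these cells out takes away MHC class II UMIs by construction, and the ratios of H2-Aa, H2-Ab1 and H2-Eb1 then turned below 0 in Disc1 LI/LI (log2 -1.11, -0.31 and -1.55), from 4, 7 and 3 UMIs in Fos-positive cells and with upper limits of 0.30, 0.80 and 0.052, while Cd74 went to 1.68-fold there. In Disc1 WT/WT, Cd74 went from 10.5-fold to 1.22-fold, H2-Aa from 9.35-fold to 1.40-fold, H2-Ab1 from 9.71-fold to 1.36-fold and H2-Eb1 from 9.53-fold to 1.09-fold. The ratios of the H2 genes in Disc1 LI/LI were also below 0 when microglial genes had to hold at least 1% of UMIs, a limit that uses no MHC gene (-1.77, -0.78 and -1.79). Ifitm3, an interferon-induced membrane protein, stood at 81.3 against 33.4 CPM in Disc1 WT/WT and 459.8 against 91.7 in Disc1 LI/LI, and turned to log2 ratios of -0.03 and -0.18 without these cells. Ms4a6c, a membrane gene of monocytes and macrophages, went from 0.73 and 1.25 to -0.32 and 0.10. Lyz2, the lysozyme of myeloid cells, stood at 1134 against 351 and 1830.4 against 535 CPM and went from 3.23-fold and 3.42-fold to 1.42-fold and 1.13-fold. The median log2 ratios of the immediate early list were 1.67 and 1.80 without these cells.

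**Figure D4:**
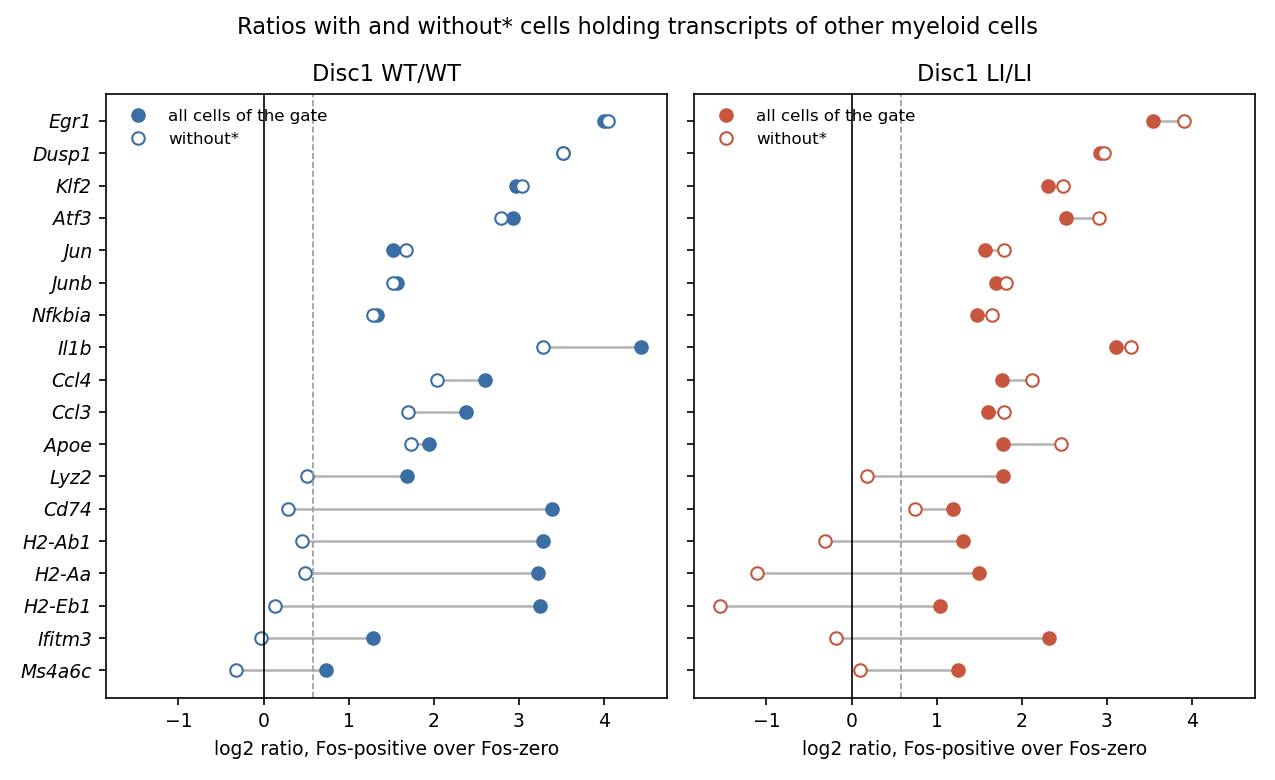
Points give the log2 ratio of CPM, Fos-positive over Fos-zero (x axes), of 18 called genes (y axis) in Disc1 WT/WT (left) and Disc1 LI/LI (right), over all gate cells (filled) and without cells that hold transcripts of other myeloid cells (open); the dashed line marks 1.5-fold. The early genes Egr1 to Junb and Nfkbia stay right of the line, and H2-Aa, H2-Ab1, H2-Eb1, Ifitm3, Ms4a6c and Lyz2 do not.

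Apoe, the lipid carrier, was among 2 of 7 measured disease-associated genes called higher, the other being Cd52, beside 1.64% of all genes measured. Without cells holding other myeloid transcripts, Cd52 went from 1.68-fold and 1.73-fold to 1.34-fold and 1.43-fold and was no longer called. Apoe stood at 2297 against 596 CPM in Disc1 WT/WT and 1623 against 474 in Disc1 LI/LI, or 3.85-fold (3.73 to 3.99) and 3.43-fold (3.21 to 3.66), and at 3.33-fold and 5.50-fold without cells holding other myeloid transcripts. It was unevenly spread, since 5 cells gave 26.1% of its UMIs in Disc1 WT/WT and 69.4% in the Disc1 LI/LI library. Ctsd, a lysosomal protease of the same list, had log2 ratios of -0.13 and -0.15. Neat1, the RNA that scaffolds nuclear paraspeckles, was the 1 of 4 measured nuclear RNAs called higher, at 82.8 against 28.8 and 101 against 26.7 CPM, but it reached the minimum only through the Fos-positive cells and had to be higher. Of 4 measured interferon response genes only Ifitm3 was called. Of the 4, 2 reached the minimum only through the Fos-positive cells in a library, Ifitm3 among them in Disc1 WT/WT. Irf8 stood near even, with log2 ratios of 0.05 and -0.07.

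Homeostatic microglial genes were slightly lower as a group. All 20 genes of the list that the selection did not use were measured, and none was past 1.5-fold in either library. Their median log2 ratios were -0.15 in Disc1 WT/WT and -0.21 in the Disc1 LI/LI library, beside -0.05 for all genes. Of the 20, 17 were below 0 in both libraries (85.0%), as were 46.3% of all genes measured. Slc2a5, a fructose transporter, had the lowest mean of the 2 libraries, at 184 against 245 CPM in Disc1 WT/WT and 219 against 304 in Disc1 LI/LI. Cst3, cystatin C and the most abundant, had log2 ratios of -0.16 and -0.24, and Itgam, which encodes CD11b, had the highest mean at -0.04 and 0.17. Without cells holding other myeloid transcripts the medians of the list were -0.09 and -0.12. Complement genes were close to even, with median log2 ratios of -0.05 and -0.13 over 10 genes. C1qa, a chain of the C1q recognition molecule, stood at 9972 against 10448 CPM in Disc1 WT/WT and 12794 against 14111 in Disc1 LI/LI. C5ar2, a receptor of complement C5a, was past 1.5-fold lower in Disc1 LI/LI only, with log2 ratios of -0.53 and -0.59 from 82 and 36 UMIs in Fos-positive cells. It stood at 43.0 and 45.5 CPM there, reached the minimum only through the Fos-zero cells in both libraries and had to be lower.

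Heat shock genes differed less than the early genes. Of 13, 11 were measured and none was called, with median log2 ratios of 0.27 and 0.15. Hspa1a, an inducible HSP70, stood at 209 against 93.5 CPM in Disc1 WT/WT and 248 against 168 in Disc1 LI/LI, or 2.23-fold (2.00 to 2.48) and 1.47-fold (1.26 to 1.72). Once cells holding other myeloid transcripts were left out, 2 heat shock genes were past 1.5-fold in both libraries, Hspa1a at log2 1.00 and 0.70 and Dnajb1, a cochaperone of HSP70, at 0.87 and 0.80. Of 35 genes known to answer tissue dissociation, a list that shares 19 genes with the immediate early list, 29 were measured and 16 called higher, beside 1.64% of all genes measured, with medians of 1.06 and 1.05. With those cells left out, 20 were past 1.5-fold in both, with Il1a, Dnajb1, Id2 and Hspa1a added. All 29 were above 0 in both libraries, as were 22.5% of all genes measured. But 5 of the 29 reached the minimum only through the Fos-positive cells in a library and had to be above 0 there. What part of the response arose before and what part during the preparation cannot be told apart here, since both libraries were made with actinomycin D.

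The 36 genes lower in Disc1 LI/LI alone had small counts. Each rested on 30 to 83 UMIs in the Fos-positive cells of that library, and their median log2 ratio was -0.66 there and -0.14 in Disc1 WT/WT, where 26 of the 36 were also below 0. Those under 50 CPM in the Fos-positive cells of Disc1 LI/LI reached the minimum only through its Fos-zero cells and had to be lower there. Tle3, the 1 gene lower in Disc1 WT/WT, had log2 ratios of -0.59 and 0.01. It is named as the only such gene.

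**Figure D5:**
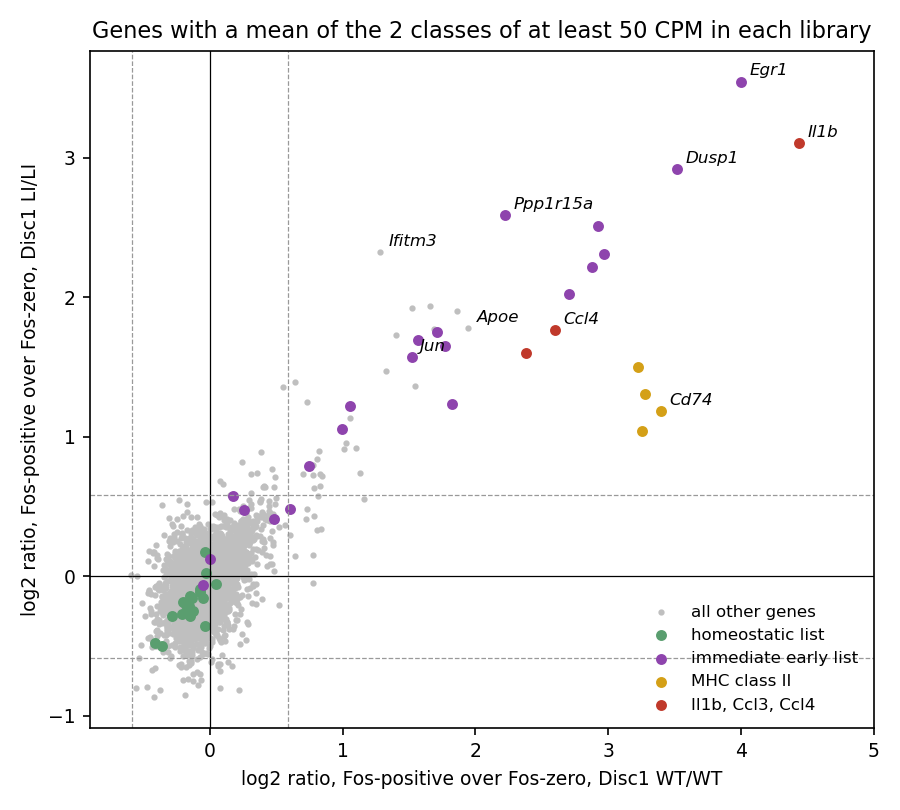
Points give, for the 2922 genes measured, the log2 ratio of CPM, Fos-positive over Fos-zero, in Disc1 WT/WT (x axis) and Disc1 LI/LI (y axis), with gene lists in colour and dashed lines at 1.5-fold. The 48 called genes lie in the upper right, with the immediate early genes near the diagonal and the 4 MHC class II genes far below it, and no gene lies past both lines at the lower left.

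Between genotypes, most early genes were within 1.5-fold of each other in Fos-positive cells. Of 3204 genes with a mean of at least 50 CPM over the Fos-positive cells of the 2 libraries, 100 (3.12%) were at least 1.5-fold higher in Disc1 LI/LI and 474 (14.8%) lower, with a median log2 ratio of -0.10. These are 1 library each, with no test. A gene under 50 CPM in 1 of the libraries passed through the other and had to be higher there. Of 24 immediate early genes in this comparison, Fos left out, 2 were past 1.5-fold higher (Junb and Gadd45b) and none lower, with a median log2 ratio of 0.05 in Fos-positive and 0.20 in Fos-zero cells. In Fos-zero cells 7 of the 24 were past 1.5-fold higher and 1 lower, as were 48 and 316 of all 3204 genes. Jun differed by a log2 ratio of 0.07 and Btg2 of 0.01, Disc1 LI/LI as the numerator, while Junb was at 0.61, Dusp1 at 0.53 and Egr1 at -0.44. The lower Egr1 level was not kept without cells holding other myeloid transcripts. Fos-positive cells of Disc1 LI/LI then held 207 CPM of Egr1, and those of Disc1 WT/WT 203 CPM. Junb (1518 against 908 CPM) and Dusp1 (521 against 320 CPM) stayed higher in Disc1 LI/LI. In Fos-zero cells Dusp1 was at 1.13, so its smaller fold in Disc1 LI/LI, Fos-positive over Fos-zero, came with a higher level in the Fos-zero cells of that library.

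Differences between genotypes in Fos-positive cells mostly had the same sign in Fos-zero cells. Since the genes were picked by their size in Fos-positive cells, a smaller size in the other class says nothing of a difference between classes. Of the 100 genes higher in Disc1 LI/LI, 98 were in the same direction in Fos-zero microglia and 31 past 1.5-fold, and of the 474 lower, 465 were in the same direction and 220 past it. The 6 highest, the selection genes S100a8 and S100a9 left out, were the immunoglobulin gene Igkc and the myeloid genes Camp, Lcn2, Chil3, Retnlg and Ngp, with log2 ratios of 6.60 for Igkc, 6.04 for Camp, 5.79 for Lcn2, 5.56 for Chil3, 4.41 for Retnlg and 4.18 for Ngp. In Disc1 WT/WT these rested on 4 UMIs each for Igkc, Camp and Lcn2, 5 for Chil3, 15 for Retnlg and 12 for Ngp, and the interval of Igkc ran from 5.22 to 8.49. All 6 were under 50 CPM in Disc1 WT/WT, passed the minimum only through Disc1 LI/LI and had to be higher there. The same genes stood at 3.90, 5.42, 5.54, 6.07, 5.48 and 5.41 in Fos-zero cells, in the library with 3607 neutrophil-gated cells. When cells holding other myeloid transcripts were left out, Igkc stood at 2.86 CPM in Fos-positive cells of Disc1 WT/WT and 68.9 in those of Disc1 LI/LI. The part of free neutrophil RNA in these values was not tested. The 6 lowest were Prpf39 (-1.996), Ppp4r3a (-1.92), Mrc1 (-1.79), Gm42031 (-1.74), Ubtf (-1.68) and Lyst (-1.59). All 6 were under 50 CPM in Disc1 LI/LI, passed the minimum only through Disc1 WT/WT and had to be lower. The interval of Prpf39 ran from -2.78 to -1.29. In Disc1 LI/LI the 6 genes rested on 18 UMIs each for Prpf39 and Ppp4r3a, 20 each for Mrc1 and Lyst, 21 for Gm42031 and 32 for Ubtf. Their values in Fos-zero cells were -0.57, -0.78, -1.72, -1.65, -0.64 and -1.06. Of 20 homeostatic genes, 3 were lower and none higher in Fos-positive cells of Disc1 LI/LI, a share near the 14.8% of all genes, and they are named as the only ones. Mef2a was at -0.71, Tgfbr2 at -0.97 and Sall1 at -0.60, beside -0.70, -0.65 and -0.45 in Fos-zero cells.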

How the data were processed

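Whole brains of 6 mice per genotype were pooled, and 1 library was made per genotype with the 10x 3′ kit. The deposited values are raw UMI counts of 32285 genes in each barcode, made by the authors without normalization. The matrix headers name Cell Ranger 6.1.2, the genome was mm10, and the submitters' processing notes name STAR and Seurat 3.0.1. Which chip version served which library is not given in the sources used here. UMIs were summed per class and library, and CPM and log2 ratios were computed, with exact conditional 95% Clopper-Pearson intervals (scipy 1.17.1) for counting error, a step tested on simulated data. Doublets were not removed, since Scrublet (scanpy 1.11.5) gave no usable calls in Disc1 WT/WT, and leaving out the 5% highest scores was an alternative. Other alternatives changed the cell and Fos limits, depth, weighting, normalization (TMM, edgeR 4.0.16 in R 4.3.3), level minimum and fold. With 1 library per genotype no test across samples was possible. The cells, 11 pathway lists, a list of nuclear RNAs and 10 marker lists were chosen with earlier results of these data known. Named genes are those the selection used, measured AP-1 and immediate early genes, the 12 highest called, the 6 highest and lowest between genotypes, and the highest, lowest and most abundant of each list. Cx3cr1 was named as a marker, and a few genes are not reported here. Lyz2, Ms4a6c, Socs3, Cd52, Dnajb1, Il1a, H2-Eb1, Ccl3 and Snhg12 fall outside this rule and were picked with their values known. Gene positions are from GENCODE vM21 and promoters from RefSeq.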

Additional observations from a re-analysis of the deposited data

How the results depend on the processing

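The higher level of the immediate early genes kept the direction of its median in both libraries under the alternatives below. All 15 called early genes stayed past 1.5-fold in both libraries under 11 of the 12 alternatives that changed the cells or the scaling and for which this was counted, and 13 did with Fos of at least 1 UMI. With the minimum set on all gate microglia, Egr1, Atf3, Ier3, Ier2 and Gadd45g were no longer measured, and 33 genes in all were called. The share of Fos-positive microglia moved with the limits. From 5.18% and 8.46%, Disc1 WT/WT first, it went to 3.86% and 6.31% with microglial genes at 1% or more of UMIs, to 2.67% and 4.95% when thinned to 2000 UMIs, to 10.1% and 20.6% with Fos of at least 1 UMI, and to 3.64% and 5.55% with at least 3. With Fos at 0.05% of UMIs or more it was 3.75% and 6.67%, and without cells holding other myeloid transcripts, an alternative added after the data were seen, 4.57% in Disc1 WT/WT. The count of 48 genes higher in both libraries became 31 with microglial genes at 1% or more, 27 with Fos of at least 1 UMI, 80 with a minimum of 20 CPM, 380 with 10 UMIs as the only minimum, and 30 past 2-fold. The count of 0 lower genes became 1 with microglial genes at 1%, 18 when thinned, 2 with Fos at 0.05%, 1 without cells holding other myeloid transcripts, 2 with means over cells, 1 at 20 CPM and 265 with 10 UMIs as the only minimum. The median log2 ratio of the immediate early genes, 1.57 in both libraries, reached in Disc1 WT/WT 1.73 thinned, 1.23 with Fos of at least 1 UMI, 1.74 with at least 3, 1.80 with Fos at 0.05%, 1.69 with means over cells and 1.03 with the minimum on all gate microglia. In Disc1 LI/LI it was 1.95, 0.87, 1.87, 1.91 and, for the minimum on all gate microglia, 1.14, and 1.80 without cells holding other myeloid transcripts. Reversed log2 ratios in Disc1 LI/LI were, with microglial genes at 1% or more, H2-Aa -1.77, H2-Ab1 -0.78, H2-Eb1 -1.79, Cd74 -1.87, Ifitm3 -0.16 and Snhg12 -0.038, and C5ar2 turned to 0.10. Thinned, H2-Aa was -0.20, H2-Ab1 -0.96, H2-Eb1 -0.85, Ifitm3 -0.13 and Ms4a6c -0.00012. With Fos at 0.05%, H2-Ab1 was -0.43 and H2-Eb1 -0.047. Without cells holding other myeloid transcripts, H2-Aa was -1.11, H2-Ab1 -0.31, H2-Eb1 -1.55 and Ifitm3 -0.18. In Disc1 WT/WT, Ifitm3 was -0.29 and Ms4a6c -0.38 with microglial genes at 1%, and -0.035 and -0.32 without those cells. The cause of these changes was not tested. With 151 Fos-positive cells in Disc1 LI/LI, a gene at 50 CPM rests on few UMIs, and neither library has a replicate.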
